A study of Mus musculus with 2 samples.

Results

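The genes of the cytosolic ribosomal proteins, which build the ribosomes that translate nuclear mRNA, were described in the newborn mouse neural tube. They were chosen by symbol: protein-coding genes named Rpl, Rplp, Rps or Rpsa with the endings of the ribosomal protein nomenclature, with the Rps6k kinases left out. The rule took 83 of 43346 gene rows, 52 of the large subunit and 31 of the small subunit. The rule reads symbols and biotypes and no measured value. The genes lie on 19 chromosomes, with 14 on chromosome 7 and 4 on the X chromosome (Rpl10, Rpl36a, Rpl39 and Rps4x). A further 2 symbols fitted the name pattern but are not annotated as protein coding, and were left out. These were Rps4l, a transcribed processed pseudogene listed at 269.9 TPM in pup 2 and 260.2 TPM in pup 1, and Rpl6l, a processed pseudogene listed at 0.78 TPM in pup 2 and 0.55 TPM in pup 1.

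Each cytosolic ribosome holds a small subunit that reads the mRNA and a large subunit that joins amino acids, and nearly every ribosomal protein is present once per ribosome. Their mRNAs begin with a pyrimidine tract, the TOP motif, through which mTOR signalling and Larp1 set their translation. The genes are highly and broadly expressed, and their mRNAs have been copied back into the genome many times, which left mammalian genomes rich in intronless copies. In mice and in people the loss of 1 allele of single ribosomal protein genes gives tissue-restricted defects of blood, skeleton and pigment, and Rpl38 is known from mouse embryos for its part in translating a set of Hox mRNAs.

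The series holds 1 group: total RNA-seq of the neural tubes of 2 B6NCrl pups at postnatal day 0, with 1 tube and 1 library per pup. Both pups came from 1 litter, the labels state that sex was not recorded, and no agent or altered allele is named. The mirVana kit gave the RNA, of which molecules above 200 bases were taken, and each library was made from 10 ng with spike-in RNAs added. The design has no contrast between conditions, so the values below are levels with their spread over the 2 pups, and differences between the pups carry no p-value.

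The libraries differed in depth, with 40003518 expected counts over all genes in pup 2 and 26916916 in pup 1. Neuronal markers were detected in both libraries (7 of 7) and summed to 3844 TPM in pup 2 and 4277 TPM in pup 1. All 3 spinal Hox genes were detected too, with 126 TPM in pup 2 and 84.7 TPM in pup 1 for Hoxa7 and 63.2 TPM in pup 2 and 105 TPM in pup 1 for Hoxd10, whereas the forebrain markers Otx1, Otx2 and Nkx2-1 were at 0 in both. Erythroid markers summed to 2886 TPM in pup 2 and 3738 TPM in pup 1, oligodendrocyte lineage markers to 649 and 398 TPM, skeletal muscle markers to 75.5 and 73.6 TPM, heart muscle markers to 9.05 and 11.3 TPM and germ cell markers to 2.52 and 2.11 TPM in pups 2 and 1.

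The ribosomal protein genes were among the most abundant nuclear mRNAs. Of the 83 genes, 80 reached 1 TPM in both pups, beside 63.8% of all 21474 protein-coding genes. TPM, the transcript level that the authors deposited, divides the estimated reads of a gene by its effective length and scales the library to a fixed total. The 83 genes summed to 39154 TPM in pup 2 and 35950.1 TPM in pup 1, which was 4.91% and 4.45% of the TPM of nuclear protein-coding genes in pups 2 and 1. On counts, which are not divided by length, they held 598654 counts in pup 2 and 362861 counts in pup 1. Their median length was 673 bases, against 2490.2 bases over the 13685 nuclear protein-coding genes at 1 TPM or more. Among 21461 nuclear protein-coding genes, 7 of the 83 ranked in the highest 100, 63 in the highest 500 and 72 in the highest 1000.

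The levels of the 80 detected genes spread over a 63.4-fold range in pup 2 and a 50.2-fold range in pup 1. The median over all 83 was 432 TPM in pup 2 and 400.03 TPM in pup 1, and the quartiles of the detected genes lay at 301 and 613 TPM in pup 2 and at 269 and 561 TPM in pup 1. The SD of log2 TPM among the detected genes was 1.01 in pup 2 and 0.99 in pup 1, against 2.08 in both pups over the 13685 nuclear protein-coding genes. The order of the genes was nearly the same in both pups (Spearman 0.989 over 80 genes that share both libraries, as a description). The coefficient of variation between the pups had a median of 5.94% and a maximum of 16.2%, so the range among genes was far wider than the difference between pups.

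**Figure D1:**
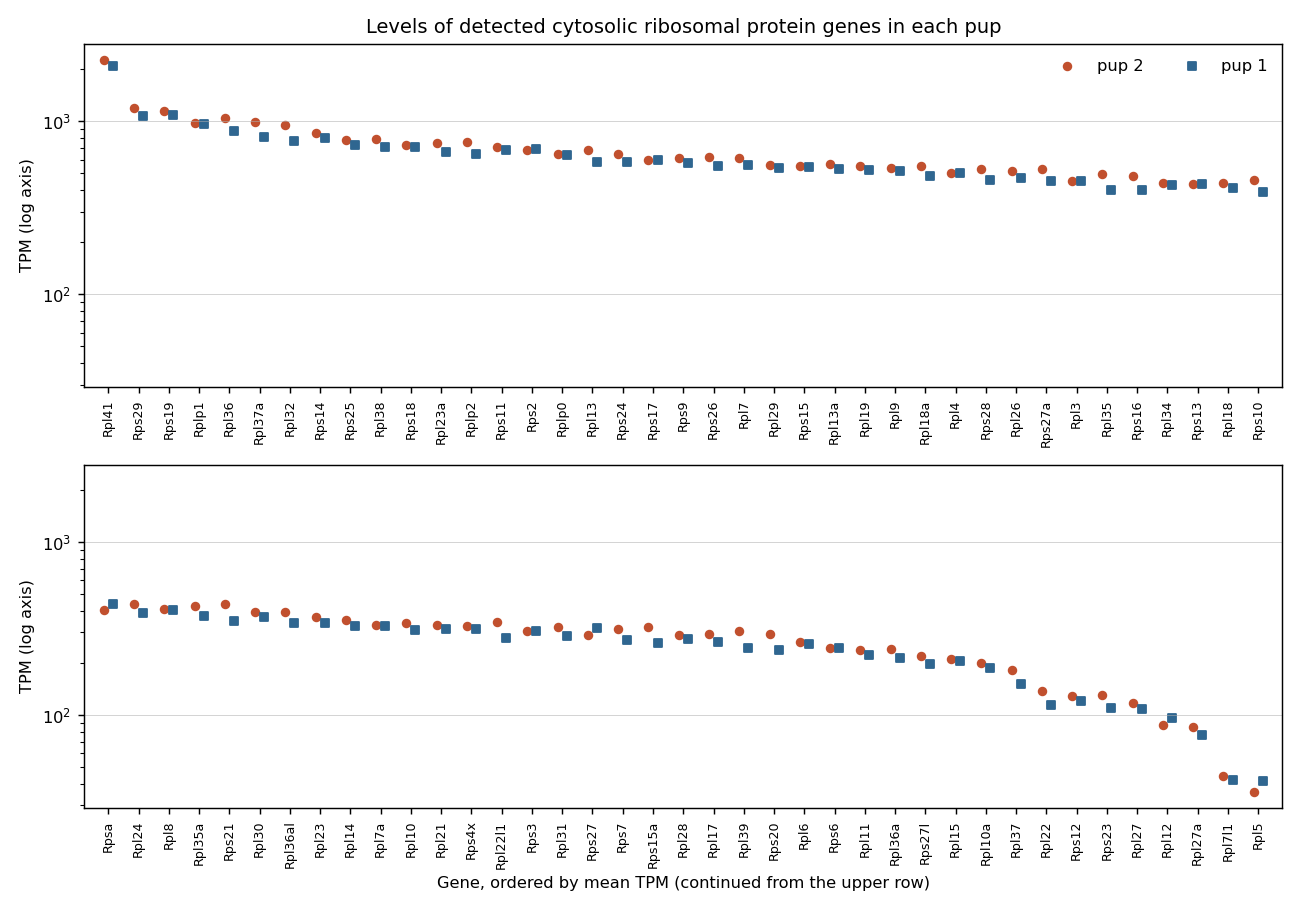
TPM on a log axis for 78 of the 80 detected genes, ordered by mean TPM over 2 rows of the plot, with circles for pup 2 and squares for pup 1. Most genes lie between 200 and 1000 TPM, Rpl41 stands alone at the top, and the last 10 genes fall away towards 35.8 TPM (Rpl5, pup 2).

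Among the 30 small-subunit genes other than Rps27l, the median level was 499 TPM in pup 2 and 446 TPM in pup 1. Rps29, a small zinc-binding protein, was highest by the mean of the pups, at 1186 TPM in pup 2 and 1068 TPM in pup 1. Rps19, the gene most often mutated in human Diamond-Blackfan anaemia, followed at 1149 TPM in pup 2 and 1079.9 TPM in pup 1. These 2 genes were close to each other in both pups, and their order was reversed in pup 1. Rps14, whose loss of 1 allele underlies the anaemia of the human 5q- syndrome, had 853 TPM in pup 2 and 797 TPM in pup 1, and Rps25, which many viral internal ribosome entry sites require, had 783 TPM in pup 2 and 731 TPM in pup 1. At the low end stood Rps23, a protein of the decoding centre, at 129.7 TPM in pup 2 and 109.6 TPM in pup 1, and Rps12, at 129 TPM in pup 2 and 120.0 TPM in pup 1. The values of Rps23 and Rps12 overlapped, and both lay below every other gene of the small subunit in both pups.

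The 43 large-subunit genes other than the stalk proteins and the paralogs had a median of 410 TPM in pup 2 and 375 TPM in pup 1. Rpl41, which encodes the shortest ribosomal protein, had the highest level at 2270.3 TPM in pup 2 and 2098 TPM in pup 1, rank 18 among nuclear protein-coding genes. Rpl36 had 1044 TPM in pup 2 and 883 TPM in pup 1, Rpl37a, a zinc-finger protein, 984 TPM in pup 2 and 812 TPM in pup 1, and Rpl32 949.9 TPM in pup 2 and 768 TPM in pup 1. These 3 differed between the pups by more than they differed from each other within pup 2. Rpl38 had 789 TPM in pup 2 and 713 TPM in pup 1. The 3 stalk genes, whose proteins recruit translation factors to the large subunit, stood at 974 TPM in pup 2 and 961 TPM in pup 1 for Rplp1, 755 TPM in pup 2 and 644 TPM in pup 1 for Rplp2 and 648 TPM in pup 2 and 637 TPM in pup 1 for Rplp0. The acidic stalk proteins Rplp1 and Rplp2 are present in more copies per ribosome than other ribosomal proteins. Whether this has a part in the RNA levels was not tested. The median of the 3 stalk genes, Rplp0 among them, was 755 TPM in pup 2 and 644 TPM in pup 1.

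The lowest detected genes were mostly large-subunit genes. Rpl5 binds 5S rRNA together with Rpl11 and can hold back Mdm2, and its own row was the lowest of all 80 at 35.8 TPM in pup 2 and 41.8 TPM in pup 1, while Rpl11 had 237 TPM in pup 2 and 222 TPM in pup 1. Rpl27a, mutated in the sooty foot ataxia mouse, had 85.6 TPM in pup 2 and 76.9 TPM in pup 1. Rpl12, at the base of the stalk, had 87.6 TPM in pup 2 and 95.6 TPM in pup 1, so that its order with Rpl27a was the same in both pups. Rpl27 had 117 TPM in pup 2 and 108 TPM in pup 1, Rpl37 had 181 TPM in pup 2 and 152 TPM in pup 1 and Rpl10a had 200.2 TPM in pup 2 and 187 TPM in pup 1. The remaining genes of the lowest 10 were the paralog Rpl7l1, the parent gene Rpl22, Rps12 and Rps23. For 8 of these 10 genes, most of the TPM of near-identical sequence was listed under other rows, as given below.

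Some proteins of the same particle fall outside the symbol rule. Rps3a1, a small-subunit protein, had 508 TPM in pup 2 and 447 TPM in pup 1. Fau, which encodes a ubiquitin-like protein joined to a ribosomal protein, had 449 TPM in pup 2 and 399.6 TPM in pup 1. Rack1, a signalling scaffold on the small subunit, had 269 TPM in pup 2 and 282 TPM in pup 1. The levels of Rps3a1, Fau and Rack1 lay within the range of the 80 detected genes.

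Of the 7 paralogs in the set, 4 were detected and 3 were not. Rpl3l is known as the skeletal and heart muscle counterpart of Rpl3, a protein near the peptidyl transferase centre. Rpl3l had 0.32 TPM in pup 2 and 0.22 TPM in pup 1, on 11 and 4 counts in pups 2 and 1, whereas Rpl3 had 453 TPM in pup 2 and 449 TPM in pup 1. Rpl3 therefore made up 99.9% of the summed TPM of the pair in each pup. Skeletal muscle markers were at low but measurable levels in both libraries (9 of 12 at 1 TPM or more in both), and their part in the Rpl3l counts was not tested. Rpl39l and Rpl10l are known from the testis. Rpl39l had 2 counts in pup 2 and 1 in pup 1, at 0.17 TPM in pup 2 and 0.13 TPM in pup 1, and Rpl10l had 0 in both pups, which allows up to 3 counts, or 0.0750 CPM in pup 2 and 0.111 CPM in pup 1. Rpl39, whose protein lines the exit tunnel, had 307 TPM in pup 2 and 245 TPM in pup 1. Rpl10, whose protein joins late in large-subunit assembly, had 340.1 TPM in pup 2 and 309 TPM in pup 1.

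Rpl22l1 was higher than Rpl22 in both pups. Rpl22l1 had 345 TPM in pup 2 and 279 TPM in pup 1, and Rpl22, an RNA-binding protein needed for αβ T cells in the mouse, had 137 TPM in pup 2 and 115 TPM in pup 1. The Rpl22l1 level was 2.53 times the Rpl22 level in pup 2 and 2.43 times in pup 1, and Rpl22 held 28.7 ± 0.545% of the pair (SD, n = 2). The size of this difference rests on the length correction. Before it, Rpl22l1 had 3788 counts in pup 2 and 2022 in pup 1, and Rpl22 had 3335 counts in pup 2 and 2207 in pup 1, so that Rpl22l1 was above Rpl22 in pup 2 and below it in pup 1. On CPM, with no division by length, Rpl22 held 49.5% of the pair, and with the full gene length in place of the effective length 31.3%. Transcripts annotated as coding held 54.0% of Rpl22l1 TPM in pup 2 and 49.7% in pup 1. For Rpl22 they held 93.1% and 93.6% in pups 2 and 1. Over these transcripts alone, the ratio of Rpl22l1 to Rpl22 is therefore smaller. Neither row shared any 50-base word with the other. Stretches of 60 aligned bases of the coding sequences show how far the genes have diverged. They are given 5′ to 3′ from GENCODE M21 transcripts on GRCm38, with capitals at the 22 positions that differ. The stretches are bases 37 to 96 of the Rpl22 coding sequence (chr4:152325742-152334071, plus strand) and bases 19 to 78 of the Rpl22l1 coding sequence (chr3:28805436-28807424, plus strand).
Rpl22: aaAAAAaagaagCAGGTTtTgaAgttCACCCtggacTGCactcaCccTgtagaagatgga
Rpl22l1: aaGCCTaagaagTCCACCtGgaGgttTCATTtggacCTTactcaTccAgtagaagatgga

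Over whole coding sequences, the pairs ranged from 62.6% identity for Rpl7 and Rpl7l1 (708 aligned bases) to 87.7% for Rpl36a and Rpl36al (318 aligned bases). Rpl22 and Rpl22l1 had 70.8% identity over 363 bases, and Rpl3 and Rpl3l 74.4% over 1205 bases. No pair shared a 50-base word between the leading transcripts, so a read of that length from a leading transcript can belong to only 1 gene of the pair. The first 60 coding bases of Rpl3 (chr15:80077791-80091868, minus strand) and Rpl3l (chr17:24727820-24736143, plus strand) differ at 13 positions, in capitals.
Rpl3: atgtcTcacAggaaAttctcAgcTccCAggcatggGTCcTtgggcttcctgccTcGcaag
Rpl3l: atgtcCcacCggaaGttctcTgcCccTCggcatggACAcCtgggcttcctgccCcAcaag

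The other detected paralogs differed from their parents in different ways. Rpl36al, an autosomal gene, had 395 TPM in pup 2 and 340.2 TPM in pup 1, above its X-linked parent Rpl36a at 241 TPM in pup 2 and 214 TPM in pup 1. Rpl7l1 had 44.5 TPM in pup 2 and 42.1 TPM in pup 1, far below Rpl7 at 611 TPM in pup 2 and 557 TPM in pup 1. Rps27l, a p53 target, had 219 TPM in pup 2 and 197 TPM in pup 1, and Rps27 288 TPM in pup 2 and 319 TPM in pup 1, so Rps27 held 56.8% of that pair in pup 2 and 61.9% in pup 1. On counts the order of this pair was the reverse, with 1195 for Rps27 and 2331 for Rps27l in pup 2, and 859 for Rps27 and 1353 for Rps27l in pup 1. The Rps27 row had the widest interval of the 80 detected genes, as described below. Its near-identical copies, also described below, held a further 5711 counts in pup 2 and 3045 in pup 1, and those of Rps27l held 0. With copies added, Rps27 had 1081 TPM in pup 2 and 971 TPM in pup 1. The share and the order on counts of this pair therefore hold for the gene rows alone. On TPM the same gene of each detected pair was higher in both pups.

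**Figure D2:**
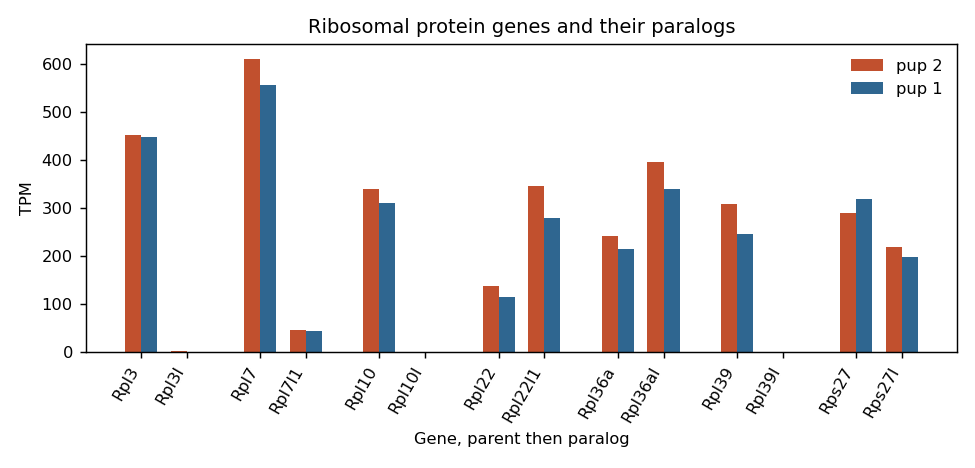
TPM of each parent gene and its paralog, with the pup 2 bar left of the pup 1 bar. Rpl22l1 and Rpl36al stand above their parents in both pups, and Rpl3l, Rpl10l and Rpl39l are too low to be seen.

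Copies of ribosomal protein genes held a large share of the signal. A row was counted as a copy of a gene where at least 20% of its own 50-base words occur in the leading transcript of that gene. There were 364 such rows for 73 of the 83 genes, of which 346 are annotated as pseudogenes and 9 as protein coding. Of the 364 rows, 114 reached 1 TPM in both pups and 62 were at 0 in both. The copies summed to 11847 TPM in pup 2 and 10665 TPM in pup 1, or 23.2% and 22.9% of genes and copies together. On counts, which are not divided by length, the share was 15.4% in pup 2 and 15.5% in pup 1. Pseudogenes recognised by symbol alone, 255 rows named after a gene of the set with the ending -ps, held 9.87 ± 0.0951% (SD, n = 2). The authors' estimation divided reads between rows of near-identical sequence, so how much of this RNA came from each locus was not tested.

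The highest copies reached the levels of the genes themselves. Gm14303, a 171-base processed pseudogene inside the Rps29 sequence, was listed at 1322 TPM in pup 2 and 972 TPM in pup 1, on 2529.7 and 1208 counts in pups 2 and 1. Rps23-ps1 was listed at 728 TPM in pup 2 and 602 TPM in pup 1, against the 129.7 and 109.6 TPM in pups 2 and 1 of Rps23. Gm15500 was listed at 259 TPM in pup 2 and 280.5 TPM in pup 1, against the 35.8 and 41.8 TPM in pups 2 and 1 of Rpl5. For Rpl27, Gm11518 was listed at 408 TPM in pup 2 and 329 TPM in pup 1 and Rpl27-ps3 at 383 TPM in pup 2 and 336 TPM in pup 1. Among the rows named here, the copy exceeded the gene in both pups for Rps23, Rpl5 and Rpl27 on TPM and on counts. For Rps29 it did so in pup 2 but not pup 1 on TPM, and in neither pup on counts, where Rps29 had 9171 in pup 2 and 5363 in pup 1.

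Many of the high copy rows carry spliced sequence. Of 26 copy rows at 100 TPM or more in both pups, 16 have a transcript that lies letter for letter within the leading transcript of their gene, and each of these 16 transcripts has 1 exon and runs across at least 1 exon junction of the gene. In 15 of these rows all 50-base words of the row lie there, and in Gm15500 99.9%. Such a transcript holds no base that would set a read from it apart from a read of the spliced mRNA. The stretches below cover an exon junction of Rpl5 (Rpl5-201, bases 186 to 245), with the bases on both sides of the junction in capitals, and show the same stretch in the copy Gm15500. Rpl5 lies at chr5:107900502-107909005, plus strand, and Gm15500 at chr7:114705217-114706235, minus strand. The sequences are from GENCODE M21 transcripts on GRCm38.
Rpl5: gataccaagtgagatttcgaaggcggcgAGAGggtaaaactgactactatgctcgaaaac
Gm15500: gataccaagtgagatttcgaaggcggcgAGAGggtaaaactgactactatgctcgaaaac

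For 15 genes the copies held over 50% of the summed TPM in both pups, and for 53 genes under 10%. On counts these were 7 and 54 genes. Copies of Rpl5 held 87.9% in pup 2 and 87.1% in pup 1, and gene and copies together came to 296 TPM in pup 2 and 324 TPM in pup 1. For Rpl27 the copies held 87.2% in pup 2 and 86.0% in pup 1, with a sum of 908 TPM in pup 2 and 773 TPM in pup 1. For Rps23 they held 84.9% in pup 2 and 84.6% in pup 1, with a sum of 858 TPM in pup 2 and 713 TPM in pup 1. These 3 genes, at 35.8 to 130 TPM by their own rows, thus had sums of 296 to 908 TPM. Copies of Rpl27a held 81.4% in pup 2 and 80.4% in pup 1, of Rpl37 75.6% in pup 2 and 76.4% in pup 1, and of Rpl12 73.7% in pup 2 and 71.4% in pup 1. Rpl37rt, a retrogene of Rpl37, alone had 561 TPM in pup 2 and 492 TPM in pup 1.

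Several of the lowest rows had high copy shares, which a low gene row raises by construction, since the share is taken of gene and copies together. Among the 10 lowest detected genes, 8 had copies above 50% of TPM as the mean of the pups, and 6 above 50% of counts. Among the 10 highest it was 1 on TPM, Rps29, with 52.7% in pup 2 and 47.7% in pup 1, and 0 on counts, where the copies of Rps29 held 21.6% in pup 2 and 18.4% in pup 1. With copies added, the SD of log2 TPM among the 80 genes was 0.83 in pup 2 and 0.82 in pup 1, against 1.01 and 0.99 from the gene rows alone. The median then was 561 TPM in pup 2 and 535 TPM in pup 1. Sums over rows of unequal length mix effective lengths. With the counts of gene and copies divided by the effective length of the gene instead, the SD was 0.82 in pup 2 and 0.81 in pup 1. Rpl22 had no copy row and Rpl7l1 none of weight, and with copies added these were the lowest genes, at 44.7 TPM in pup 2 and 42.1 TPM in pup 1 for Rpl7l1 and 137 TPM in pup 2 and 115 TPM in pup 1 for Rpl22.

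The share of sequence that is unique varied as widely. Of the 100-base words in the leading transcript of each gene, a median of 65.5% occurred in no transcript of another gene. At least 90% were unique in 18 genes and under 50% in 27. Rps27 had the lowest share at 1.63%, followed by Rpl10 at 8.43%, Rpl9 at 13.0%, Rps6, a substrate of the S6 kinases, at 16.4% and Rpl24 at 19.9%. Genes with no copy row included Rps3, Rps9, Rpl22 and Rpl32. Rps20 and Rpl23 also had none. Their leading transcripts are annotated as non-coding but hold 99.4% of the 50-base words of the Rps20 coding sequence and 96.5% of those of Rpl23, and a search with the coding transcript instead found 1 gene for Rps20 and 1 for Rpl23.

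Rps27 shows the limit of assignment. Rps27rt, a protein-coding retrogene of 1 exon, has a coding sequence identical to that of Rps27 over all 252 bases. Rps27rt was listed at 793 TPM in pup 2 and 651 TPM in pup 1, and Rps27 at 288 TPM in pup 2 and 319 TPM in pup 1. The interval that the authors' tables give for Rps27 ran over 242 to 323 TPM in pup 2 and 259 to 361 TPM in pup 1, the widest of the 80 genes relative to its posterior mean TPM. The first 60 coding bases of Rps27 (chr3:90212522-90213651, minus strand) and Rps27rt (chr9:114982366-114982739, minus strand) hold no capital, since no position differs.
Rps27: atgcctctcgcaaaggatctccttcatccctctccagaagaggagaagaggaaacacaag
Rps27rt: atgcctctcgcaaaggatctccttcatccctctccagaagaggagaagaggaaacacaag

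Interval widths give the precision of each row. The level that these intervals cover is not given in the sources used here. The median width, as a percent of the posterior mean TPM, was 5.78% in pup 2 and 7.43% in pup 1, the shallower library. The widest after Rps27 were Rps12 at 23.8% in pup 2 and 30.6% in pup 1, Rpl5 at 19.5% in pup 2 and 21.1% in pup 1, Rpl12 at 18.2% in pup 2 and 21.1% in pup 1 and Rpl27 at 14.3% in pup 2 and 18.5% in pup 1. Width followed the count behind the row (Spearman -0.85 over 80 genes) more than the share of unique 100-base words (-0.33), as a description over genes of the same libraries. The TPM estimate lay above its own interval for 17 genes in pup 2 and 32 in pup 1. The share over all genes was not computed, so this is not read as particular to the set. The posterior mean was below TPM, with a median ratio of 0.979 in pup 2 and 0.969 in pup 1.

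**Figure D3:**
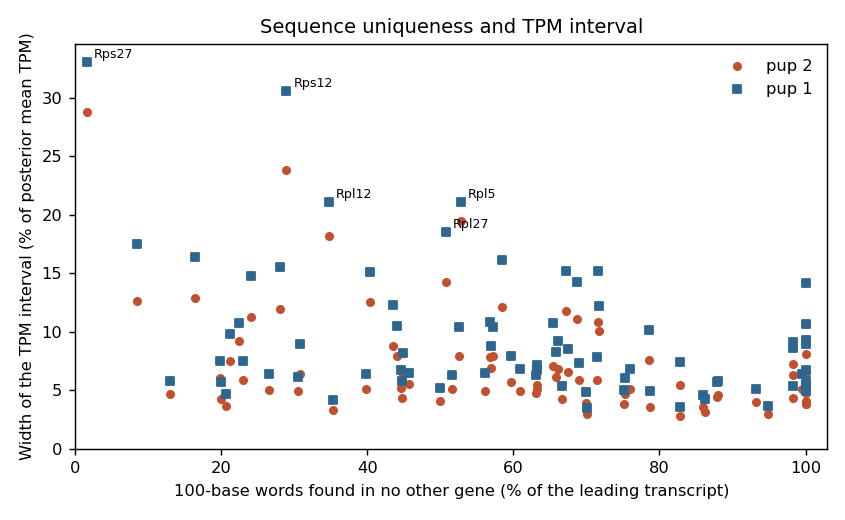
Width of the deposited TPM interval as a percent of the posterior mean TPM, against the percent of 100-base words found in no other gene, for the 80 detected genes, with circles for pup 2 and squares for pup 1. Rps27 sits at the upper left, followed by Rps12, and no gene with over 80% unique words exceeds 14.1% in pup 1 (Rpl22).

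Most genes were led by their coding transcript. Of the 60 detected genes with several transcripts, 53 had an annotated protein-coding transcript as their highest in both pups, and 58 had the same highest transcript in both. Coding transcripts held 90.7% of the TPM of the set in pup 2 and 91.0% in pup 1. Retained-intron transcripts held 2.91% and 2.67% in pups 2 and 1. Processed transcripts, which have no annotated coding frame, held 4.36% and 4.22% in pups 2 and 1. The same shares over all genes were not computed, so these values are not read as particular to the set. A few genes stood apart. Rps20-201, a retained-intron transcript, held 91.5% of Rps20 in pup 2 and 91.4% in pup 1. Rpl35-203, a processed transcript, held 84.7% of Rpl35 in pup 2 and 86.3% in pup 1. Although not annotated as coding, Rpl35-203 holds 99.4% of the 50-base words of the Rpl35 coding sequence.

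Rps18, Rpl23, Rpl12, Rpl13a and Rpl22l1 were the other genes with a highest transcript that is not annotated as coding in at least 1 pup. Rps18-209 held 50.3% of Rps18 in pup 2 and 49.6% in pup 1. Its sequence holds 99.5% of the 50-base words of the Rps18 coding sequence. Rpl23-204 held 63.0% of Rpl23 in pup 2 and 66.5% in pup 1. Rpl12-201, annotated for nonsense-mediated decay, held 58.7% of Rpl12 in pup 2 and 66.0% in pup 1. Its sequence holds 91.9% of the 50-base words of the Rpl12 coding sequence. In Rpl13a the highest transcript, at 37.8% in pup 2 and 35.2% in pup 1, had no match in the later annotation used for names. In Rpl22l1 the coding Rpl22l1-206 led in pup 2 with 45.4%, and the processed transcript Rpl22l1-209 led in pup 1 with 43.2%.

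Many of the genes host small nucleolar RNAs, which guide the modification of ribosomal RNA. A snoRNA gene lies inside 29 of the 80 detected genes (36.3%), 56 snoRNA genes in all, against 1.64% of 13605 other detected nuclear protein-coding genes. Rpl4 held 5 and Rpl13a held 4. The libraries kept RNA above 200 bases, and 40 of the 56 snoRNA rows were at 0 in both pups. Most of these 40 rows are 99 bases or shorter, and every row with a count is 129 bases or longer. Effective length fell 99 bases short of length in the median gene, so rows that short could hardly receive counts. Their zeros therefore say little about the RNA present. The 10 rows at 1 TPM or more in both pups rested on at most 13 counts.

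Start regions were read for the letters of the TOP tract. RefSeq promoter windows on GRCm38.p6 were matched by symbol for 63 of the 83 genes. In the 30 bases around the annotated start, 15 before and 15 after it, CTTTC on the gene strand was present in 17 of 63 (27.0%), against 4.21% of 16254 other protein-coding genes, and CTTCC in 13 of 63 (20.6%), against 8.63%. Either was present in 25 of 63 (39.7%), against 12.3%, and CTTCC and CTTTC can overlap by shared letters. CCGGAAG on either strand, whose reverse complement contains CTTCC, was found in the 300-base window of 25 of 63 genes (39.7%), against 13.4%. TATAAA in the 50 bases before the start was found in 1 of 63 (1.59%), against 3.70%. A match is only a description of these letters. The windows of the 5 most abundant genes with CTTTC or CTTCC are shown, with the matched letters in capitals and the annotated start at base 16. The match begins at that base only in Rpl38, and in Rpl13 it lies wholly before it. The capitals are therefore not read as the tract at the start of the mRNA.
Rpl38, chr11:114668565-114668594, plus strand: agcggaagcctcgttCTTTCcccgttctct
Rps18, chr17:33955651-33955680, minus strand: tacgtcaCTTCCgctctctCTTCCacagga
Rplp2, chr7:141447636-141447665, plus strand: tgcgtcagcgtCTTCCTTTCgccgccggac
Rpl13, chr8:123102335-123102364, plus strand: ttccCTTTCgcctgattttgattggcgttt
Rps24, chr14:24490663-24490692, plus strand: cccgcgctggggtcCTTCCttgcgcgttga

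Between the pups, the genes differed little and mostly in the same direction. The log2 ratio of pup 2 over pup 1 was taken on counts scaled by TMM (a factor that assumes most genes unchanged), with a prior count of 2, for genes averaging 100 counts or more, which all 80 detected genes did. None of the 80 differed by 2-fold or more, beside 0.473% of all 13544 genes. At so low a share, a count of 0 is not particular to the set. In pup 2, 77 of 80 were higher, beside 50.3% of all genes, with a median log2 ratio of 0.19 against 0.00 over all genes, whereas with the spike-in totals as the scale the median was -0.11 and 12 of 80 were higher, beside 6.48% of all genes. At 1.2-fold, 18 genes were higher in pup 2, beside 8.00% of all genes, and 0 were lower, beside 6.18%, whereas on the spike-in scale 0 were higher, beside 1.79%, and 4 lower, beside 57.0%. With 1 library per pup these numbers describe 2 littermates and have no replicate check, and in bulk tissue fewer cells of a type and less RNA per cell cannot be told apart.

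Rps21 and Rpl39 had the largest ratios. Rps21 had 439 TPM in pup 2 and 349 TPM in pup 1, a ratio of 1.32 on scaled counts. Rpl39 had a ratio of 1.31. Rpl32, Rps20 and Rpl22l1 followed at 1.30, 1.29 and 1.28. The lowest ratio was that of Rpl5, 0.886, followed by Rps27 at 0.947 and Rpsa, known also as a laminin receptor, at 0.964. Rpl12 was near 1, at 1.01. Rpl22 had a ratio of 1.03 on scaled counts, but its TPM was 137 TPM in pup 2 and 115 TPM in pup 1, while the gene length in the tables, an average over isoforms, was 1017.5 bases in pup 2 and 1213 bases in pup 1. On the spike-in scale each of these ratios is lower by about the same factor.

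The deposited TPM intervals of the pups did not overlap for 45 genes that were higher in pup 2, beside 7.72% of all genes tested, and for 1 gene that was lower, Rpsa, beside 15.9%. Rpsa had 404 TPM in pup 2 and 439.6 TPM in pup 1. These intervals cover the estimation within a library and no variation between animals. Among the detected genes of the set, intervals were narrower at higher counts (Spearman -0.85). Every detected gene of the set averaged at least 1027 counts (Rps27), while the genes tested include all that averaged 100 or more. The percentages were not matched for count, and the part of count in these differences was not tested. Rpl5, Rps27 and Rpl12, whose intervals were among the widest, overlapped between the pups.

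The difference moved with gene length. On the TMM scale short genes were higher in pup 2 outside the set as well, while the spike-in scale shifts the median log2 ratio of all genes by -0.29. Under 500 bases, the median log2 ratio was 0.22 for 15 genes of the set and 0.17 for 62 other protein-coding genes. Between 500 and 700 bases it was 0.22 for 28 genes and 0.11 for 195 others, between 700 and 1000 bases 0.15 for 25 genes and 0.09 for 589 others, and between 1000 and 2000 bases 0.08 for 11 genes and 0.03 for 3364 others. Of 79 genes in these classes, 62 lay above the median of the other genes of their class. The Spearman correlation of ratio and length was -0.38 over the 80 genes and -0.24 over 12824 nuclear protein-coding genes, as a description of these 2 libraries. The part of length, of depth and of the lower neuronal and erythroid sums, the higher oligodendrocyte sum and the Hoxa7 and Hoxd10 levels of pup 2 in this difference was not tested.

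**Figure D4:**
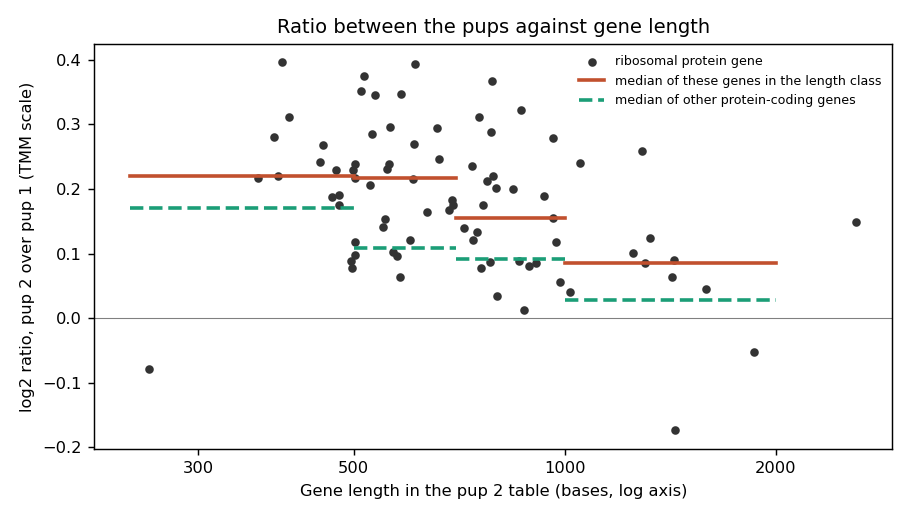
Log2 ratio of pup 2 over pup 1 on the TMM scale against gene length on a log axis, with a point per ribosomal protein gene, solid lines at their median in each length class and dashed lines at the median of other protein-coding genes. The points fall towards longer genes and the solid lines lie above the dashed ones. On the spike-in scale the median of the points would lie at -0.11.

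Other genes of the translation machinery gave a frame for these values. All 77 mitochondrial ribosomal protein genes, which serve the separate ribosome of mitochondria, were detected, with a median of 87.2 TPM in pup 2 and 88.4 TPM in pup 1, and their SD of log2 mean TPM was 0.98. Of these, 66 of 77 were higher in pup 2 on the TMM scale, with a median log2 ratio of 0.10, against 0 of 77 and a median of -0.20 on the spike-in scale, which shifts the median of all genes by -0.29. Over all genes tested, 50.3% were higher in pup 2 on the TMM scale and 6.48% on the spike-in scale. Mrpl20 was the highest of the 77 at 263 TPM in pup 2 and 256 TPM in pup 1. Mrpl30 had 248 TPM in pup 2 and 253 TPM in pup 1 and Mrpl42 256 TPM in pup 2 and 244 TPM in pup 1, and their order differed between the pups. Mrpl1 was the lowest at 11.4 TPM in pup 2 and 11.7 TPM in pup 1.

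A list of 12 elongation factors and other translation-associated genes was detected in full. Eef1a1, which brings aminoacyl-tRNA to the ribosome, had 1951 TPM in pup 2 and 2002 TPM in pup 1, close to Rpl41. Eif5a had 846 TPM in pup 2 and 847 TPM in pup 1 and Tpt1, which is not itself an elongation factor, 654 TPM in pup 2 and 563 TPM in pup 1. Eef1a2, the isoform that replaces Eef1a1 in mature neurons and muscle, was the lowest at 31.1 TPM in pup 2 and 29.9 TPM in pup 1. In pup 2, 7 of 12 were higher on the TMM scale (median log2 ratio 0.05) and 0 of 12 on the spike-in scale (median -0.24). Of all genes tested, 50.3% were higher in pup 2 on the TMM scale and 6.48% on the spike-in scale.

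The 25 ribosome biogenesis genes were all detected, with a median of 36.5 TPM in pup 2 and 37.3 TPM in pup 1, below the medians of the ribosomal protein genes. Npm1, a nucleolar chaperone, had 274 TPM in pup 2 and 271 TPM in pup 1. Nop56, of the box C/D snoRNP core, had 209 TPM in pup 2 and 216 TPM in pup 1, and Nop10, of the box H/ACA core, 173 TPM in pup 2 and 159 TPM in pup 1. Subunits of RNA polymerase I were lowest, with 7.69 TPM in pup 2 and 8.54 TPM in pup 1 for Polr1a and 8.01 TPM in pup 2 and 8.22 TPM in pup 1 for Polr1b. In pup 2, 14 of 25 were higher on the TMM scale (median log2 ratio 0.03) and 0 of 25 on the spike-in scale (median -0.27). Of 12 genes for TOP mRNA control and ribosome quality, 11 matched a row, of which 8 were higher in pup 2 on the TMM scale (median log2 ratio 0.04) and 2 on the spike-in scale (median -0.26). Beside both lists, 50.3% of all genes tested were higher in pup 2 on the TMM scale and 6.48% on the spike-in scale. Eif4e, the cap-binding factor, was highest of the 11 at 91.7 TPM in pup 2 and 98.3 TPM in pup 1. Hbs1l followed at 51.8 TPM in pup 2 and 49.0 TPM in pup 1. The S6 kinase gene Rps6kb1 had 52.8 TPM in pup 2 and 47.8 TPM in pup 1. The ribosome rescue factor Pelo was lowest at 8.80 TPM in pup 2 and 7.11 TPM in pup 1.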

How the data were processed

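Each pup gave a gene table and a transcript table. Per the file headers they hold expected counts, TPM, posterior mean values, bounds of an interval of the TPM signal, lengths and, per transcript, the percent of its gene's TPM. The column names are those of RSEM. As deposited, expected counts are estimated and can be fractional, and TPM is a level per effective length with a fixed sum per library. Build mm10 and annotation GENCODE M4 stand in the deposited notes. Aligner, version of RSEM and strandedness: not given in the sources used here, so reads of overlapping antisense genes cannot be told apart. Effective length fell 99 bases short of length in the median gene.

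Names and sequences were taken from GENCODE M21 (GRCm38, the same assembly), matched on gene ID without version for 42462 of 43346 gene rows. Library sizes exclude 26248 tRNA rows, 96 spike-in rows and phiX. Spike-in rows held 603 counts in pup 2 and 335 in pup 1, so the log2 ratio of their totals, 0.85, had a counting standard error of 0.10 (counting error only). Counts were rounded and scaled by TMM with edgeR 4.0.16 in R 4.3.3, over the 18105 genes averaging 10 counts or more, with DESeq2 1.42.0 size factors as an alternative. No model was tested, since 1 group of 2 pups has no contrast. Means ± SD are over the 2 pups. The labels name pup 1 and pup 2 but give both samples the same donor identifier, so that they are separate animals rests on the pup numbers, and the spread may be technical. Detection meant 1 TPM in both pups. Python 3.11.15, numpy 2.4.6, pandas 2.3.3, matplotlib 3.10.9 and Biopython 1.88 (global alignment of coding sequences) were used. For 58 of 83 genes the leading transcript had the same length in M21 as in the deposited tables, and for 67 it was within 20 bases, so shares of unique sequence are approximate for the rest. Ratios were tested on simulated counts.

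The members and gene lists were chosen with earlier results of these data known. Named were the 10 highest and lowest genes by mean TPM, all paralog pairs, the 5 highest and lowest ratios, the 5 widest intervals, the 5 lowest shares of unique sequence, genes under 1 TPM, genes led by a non-coding transcript, and the 3 highest and the lowest of each list. Copies, stalk genes, promoter windows, Rpl11 and snoRNA hosts were named after their values were seen. Some genes and a sequence that these rules select are not reported here.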

Additional observations from a re-analysis of the deposited data

How the results depend on the processing

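Of the alternative values computed over the results, 45 were classed as the same, 18 as moved and 1 as reversed. The change allowed was not equal across results. A median log2 ratio of 0.11 in place of 0.19 was classed as the same, and a spread of 0.96 in place of 1.00 as moved. No member passed 2-fold under any scaling, count minimum or prior tried, or at 1.5-fold, and 18 passed 1.2-fold, or 8 on the TPM ratio. Only 0.473% of all genes passed 2-fold on the TMM scale, so the lack of such members is not particular to the set. The median log2 ratio ranged from 0.11 to 0.19 under the other scalings and turned to -0.11 with the spike-in totals, an alternative chosen after seeing the data, as were all that add copies. The median member level of 414 TPM (mean of the pups) was 152 on CPM, 516 over nuclear protein-coding genes alone and 525 with copies. The spread of 1.00 (SD of log2 mean TPM) was 0.96 with full length, 0.92 on CPM, 0.95 without paralogs, 0.82, 0.82 and 0.84 with copies at 10%, 20% and 50% of shared words, and 0.81 with counts of gene and copies over the gene's length. The Rpl3 share of 99.94% was 99.88% from posterior means, which was classed as moved. The Rpl22 share was 31.3% with full length, 49.5% on CPM and 28.0% with copies. The pseudogene share of 9.87% was 20.9% for pseudogenes found by shared 50-base words and 23.1% for all copies at 20%. With 50-base words, 9 genes reached 90% unique in place of 18. The cause of these changes was not tested, beyond what each setting does by construction. Leaving out a pup changed none of the results that could be recomputed from 1 library, and the median level was 432 TPM without pup 1 and 400.03 TPM without pup 2.

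No paired analysis was possible because the series holds 1 group. With 2 pups of 1 litter the spread between animals is poorly known, and with 603 and 335 spike-in counts the spike-in scale is imprecise. Reads that lie within a stretch shared by 2 rows cannot be assigned at any depth.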
